A study of Drosophila melanogaster with 3 samples.

Results

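The genes described are the transfer RNA (tRNA) genes of *Drosophila melanogaster*, taken as every gene of the Ensembl biotype tRNA on the major chromosome arms whose symbol starts with tRNA:. There were 290 of them among 17896 annotated genes, pseudogenes and transposable elements not counted. Binding of Methoprene-tolerant (Met) was mapped around them by ChIP-seq, the sequencing of DNA that is co-precipitated with a protein, in whole white prepupae, the stage at which the puparium has just formed. All animals came from 1 transgenic line that stably carries Met with green fluorescent protein (GFP) at its C-terminus, and the tagged protein was precipitated with an anti-GFP antibody. Males and females were pooled, the age is labelled unknown, and no treatment is given. The series is 1 group of 3 biological replicates, so no condition was compared with another and the spread is that between the 3 libraries. The labels name no driver for the transgene and do not give the state of the endogenous Met gene. Whole animals mix all tissues, so a peak may come from any of them.

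tRNA genes are transcribed by RNA polymerase III. Their promoter lies inside the gene: the A box and the B box are bound by the factor TFIIIC, which brings TFIIIB to the DNA just upstream of the gene, and transcription ends at a run of T just after it. Met is a bHLH-PAS transcription factor that binds juvenile hormone, the insect hormone that delays metamorphosis. With its bHLH-PAS partner it is known to act at promoters of RNA polymerase II, at DNA elements related to the E-box.

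The label was checked against sequence. All 290 genes had the same start and end in the RefSeq annotation of the same assembly. A run of 4 T was present within 50 bp after 289 of them. The core of the B box, spelled GTTCGANNC and read on the gene's own strand, was present in 160 genes (55.2%), and the wider form GTTCNANNC, which contains it and was chosen after the data were seen, in 271 (93.4%). The genes ran from 71 to 186 bp in length with a median of 73 bp. Chaining neighbours over gaps of up to 1 kb gave 174 loci, of which 105 held 1 gene and 69 held several. Of the 290 genes, 238 had at least 1 identical copy, and there were 95 distinct sequences in all, the commonest in 13 copies. The sources used here do not say how reads that map to several places were treated.

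The sequences that follow are those of tRNA genes near some of the strongest peaks, and of 1 gene with a summit inside it. They are from the RefSeq Release 6 assembly (dm6), 5′ to 3′ on the gene's strand, with the wide B box core GTTCNANNC in capitals. The gene tRNA:Tyr-GTA-1-8 is at chr3R:8669081-8669174 on the minus strand, tRNA:Lys-TTT-1-1 at chr2L:8290727-8290799 on the plus strand, tRNA:Gln-TTG-2-1 at chrX:3427452-3427523 on the minus strand, tRNA:Leu-TAA-2-1 at chr3R:24112964-24113047 on the plus strand and tRNA:Pro-AGG-1-7 at chr3L:13212365-13212436 on the plus strand.
tRNA:Tyr-GTA-1-8: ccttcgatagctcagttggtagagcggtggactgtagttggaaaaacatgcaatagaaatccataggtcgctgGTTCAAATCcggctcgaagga
tRNA:Lys-TTT-1-1: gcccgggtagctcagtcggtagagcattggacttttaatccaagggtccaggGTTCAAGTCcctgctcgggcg
tRNA:Gln-TTG-2-1: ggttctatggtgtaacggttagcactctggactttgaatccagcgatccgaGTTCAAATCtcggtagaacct
tRNA:Leu-TAA-2-1: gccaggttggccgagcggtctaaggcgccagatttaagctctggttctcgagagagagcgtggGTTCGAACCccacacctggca
tRNA:Pro-AGG-1-7: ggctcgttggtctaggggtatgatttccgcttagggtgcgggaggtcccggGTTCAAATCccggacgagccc

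The gene tRNA:Ser-AGA-2-4, at chr2L:3173003-3173084 on the minus strand, stood alone with 1 summit on each side. The stretch between those summits, chr2L:3172941-3173142, is given on the gene's strand with the tRNA gene in capitals; its first base is the summit upstream and its last base the summit downstream.
tRNA:Ser-AGA-2-4 between its summits: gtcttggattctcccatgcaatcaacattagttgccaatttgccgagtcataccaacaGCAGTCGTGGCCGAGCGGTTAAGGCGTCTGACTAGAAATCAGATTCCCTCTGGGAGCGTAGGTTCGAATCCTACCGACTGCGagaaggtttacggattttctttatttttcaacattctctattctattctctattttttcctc

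The DNA under the strongest peaks was unlike the genes in composition. The windows shown reach 50 bp to each side of a summit, on the plus strand of dm6, with the summit base in capitals: chr3R:8669328-8669428 upstream of tRNA:Tyr-GTA-1-8, chr2L:8291003-8291103 downstream of tRNA:Lys-TTT-1-1 and chrX:3427704-3427804 upstream of tRNA:Gln-TTG-2-1.
tRNA:Tyr-GTA-1-8 peak: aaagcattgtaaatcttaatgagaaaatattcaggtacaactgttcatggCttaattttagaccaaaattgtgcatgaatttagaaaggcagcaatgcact
tRNA:Lys-TTT-1-1 peak: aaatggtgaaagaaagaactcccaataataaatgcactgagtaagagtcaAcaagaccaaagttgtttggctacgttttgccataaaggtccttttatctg
tRNA:Gln-TTG-2-1 peak: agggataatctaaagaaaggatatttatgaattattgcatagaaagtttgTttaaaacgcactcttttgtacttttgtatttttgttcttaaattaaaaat

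The tRNA genes had a median G+C content of 58.5%, from 45.8% to 67.6%. Within 500 bp on either side the median was 36.8%, and over the arms it was 42.2%. The same windows around all summits near tRNA genes had a median of 33.7%, from 20.8% to 56.4%, beside 31.7% for all peaks of the reproducible list. The flanks of tRNA genes with a summit nearby had a median of 37.2% and those without one 36.6%.

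Peaks were taken from the dm6 list that the authors thresholded on the irreproducible discovery rate (IDR), called the reproducible list here. It holds 28.4% of the 30000 peaks of their pooled relaxed list. Each peak has a summit and a signal value by which it is ranked here, rank 1 being the strongest. A gene was counted as near a peak when a summit lay within 1 kb of it. Of the 290 tRNA genes, 59 (20.3%) had such a summit, from 44 distinct peaks. The background was 20.2% of the 5′ ends of 13945 protein-coding genes (2820), 19.9% of the 5′ ends of all genes and 10.5% of the bases of the 6 arms. The share of tRNA genes was thus 1.93 times the share of bases and close to that of coding 5′ ends. The excess over bases was not confined to the DNA next to the genes. In 250 bp bins by distance from tRNA 5′ ends, the bin just upstream held 234 summits per Mb, beside 63.6 over the arms. The bins 1250 to 1000 bp upstream and 1750 to 2000 bp downstream held 193 each, and that 1500 to 1750 bp downstream 41.4. Counted by locus, which allows for neighbours that share a peak, 36 of 174 loci (20.7%) had a summit. Without replicate 3, that is with peaks found in both others only, 39 genes and 24 loci had a summit nearby.

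To give the spread, each replicate list was reduced to its strongest peaks, as many as the reproducible list holds. In replicates 1, 2 and 3 the share of tRNA genes near a summit was 16.2%, 26.6% and 25.2%, with a mean of 22.6% ± 5.62 (SD, n = 3). Coding 5′ ends gave 23.3%, 21.0% and 22.8%, with a mean of 22.3% ± 1.22 (SD, n = 3). Replicate 1 was the lowest of the 3 for tRNA genes and the highest for coding 5′ ends, so the difference changed sign between libraries: it was −7.08 points in replicate 1, 5.59 in replicate 2 and 2.42 in replicate 3. The mean difference of 0.311 points ± 6.59 (SD, n = 3) was smaller than the spread, positive in 2 of 3 replicates (exact sign-flip permutation test over replicates, 2-sided, p = 1; smallest possible p 0.25; 1 after adjustment over the 3 differences tested).

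In 42 tRNA genes a summit was near in all 3 replicate lists, in 20 genes in 2 lists, in 31 genes in 1 list and in 197 genes in none. Of the 59 genes near a reproducible peak, 41 were near a summit in all 3 lists, 11 in 2 and 7 in 1. The 1 kb limit fell between tRNA:iMet-CAT-2-1, an initiator methionine gene whose nearest summit lay 943 bp away at rank 7910, and tRNA:Met-CAT-1-2, whose nearest summit lay 1006 bp away at rank 3860. Across all 290 genes the nearest summit was a median of 3138 bp away, with quartiles of 1178 and 10149 bp, and at most 76220 bp away.

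**Figure D1:**
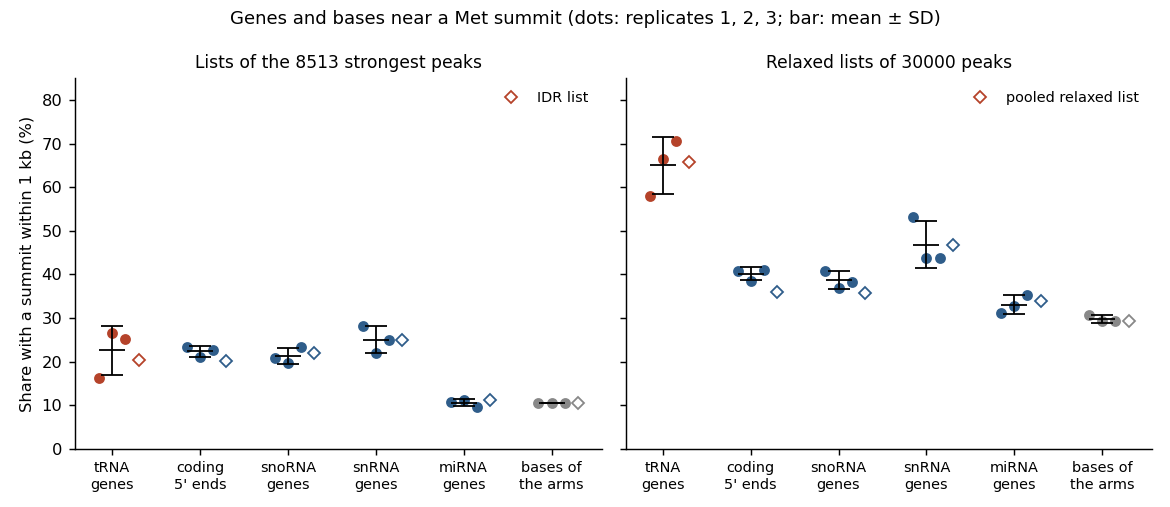
Percent of genes, or of bases of the 6 arms, with a Met summit within 1 kb, by class. Dots are replicates 1 to 3 from left to right, bars their mean ± SD and open diamonds the pooled list. With the strongest peaks the tRNA dots lie from 16.2% to 26.6% around those of coding 5′ ends; with the relaxed lists of 30000 peaks they lie from 57.9% to 70.7%, above every dot of the other classes.

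Other classes of short noncoding genes differed in their share. Small nucleolar RNA genes, many of which lie in introns of host genes, were near a reproducible peak in 59 of 269 cases (21.9%), small nuclear RNA genes in 8 of 32 (25%) and microRNA genes in 29 of 260 (11.2%). No gene of biotype rRNA among 99 had a summit nearby (0%). Among 105 other genes transcribed by RNA polymerase III, 4 (3.81%) had one. Both of these low shares rest on the same 96 copies of the 5S rRNA gene, which stand together on 2R, none nearer than 2230 bp to a summit. Of the other 9 genes of the class, 4 (44.4%) had a summit. They were snRNA:7SKa, with a summit inside it, and the U6 genes snRNA:U6:96Aa, snRNA:U6:96Ab and snRNA:U6:96Ac, named after their values were seen. The U6 genes share a locus and lie 929, 325 and 92 bp from the same summit, so the 4 genes do not stand for 4 peaks. These 4 are also among the 8 small nuclear RNA genes counted above.

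The peaks near tRNA genes were mostly of middle to low strength. Their ranks ran from 151 to 8287 with a median of 5074, and 17 of the 44 had a signal above the median of the list. The median signal was 165, beside 194 for all reproducible peaks. All 44 were overlapped by a peak of at least 1 reduced replicate list: 30 in all 3 replicates (68.2%, beside 73.6% of all reproducible peaks), 9 in 2 and 5 in 1. By this rule 1 replicate peak can count for 2 neighbours, which it did for 4 of the 30. Most peaks, 27, were near 1 tRNA gene; 17 were near several, up to 5. Conversely, 49 tRNA genes had 1 summit within 1 kb and 10 had 2.

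The strongest peak, with a signal of 1435, lay 204 bp upstream of tRNA:Tyr-GTA-1-8, which sits in a locus of 3 genes within the coding gene CG8036. It ranked 238 in replicate 1, 147 in replicate 2 and 131 in replicate 3, and its summit was 203, 207 and 210 bp upstream of the gene. The rank and position were thus alike in the 3 libraries. A transcription start site (TSS) of CG8036 lay 240 bp from the summit, so both promoters are about equally near. The next, at rank 504, was 832 bp upstream of tRNA:Val-TAC-1-1 but only 165 bp from a TSS of lama, a coding gene.

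At rank 792 a peak lay 254 bp downstream of tRNA:Lys-TTT-1-1, a single gene within Btk, a tyrosine kinase gene whose nearest TSS was 6071 bp away. It ranked 913, 844 and 715 in replicates 1, 2 and 3. A peak of almost the same signal, at rank 798, lay 231 bp upstream of the single gene tRNA:Gln-TTG-2-1, 8053 bp from the nearest coding TSS, and ranked 853, 750 and 851. Both peaks are far from annotated coding promoters, and both kept a place among the strongest peaks in each library. A weaker peak at rank 5837 lay 808 bp on the other side of tRNA:Gln-TTG-2-1.

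Of the other strong peaks, those at ranks 1194, 1400, 1852 and 2118 lay 561 to 876 bp upstream of tRNA:Leu-CAA-2-2, tRNA:Glu-CTC-3-1 and tRNA:Gly-GCC-1-6 and 389 bp upstream of tRNA:Pro-AGG-1-2, with no coding TSS within 4 kb. The peak at rank 1277, 162 bp upstream of tRNA:His-GTG-1-3, had a TSS of CG8490 at 88 bp. The peak at rank 1992, 396 bp downstream of tRNA:Val-CAC-2-5, lay 431 bp from a TSS of Naam, the gene of a nicotinamidase. At rank 2246 a peak 187 bp downstream of tRNA:Phe-GAA-1-2 was 46 bp from a TSS of RpL17, a ribosomal protein gene. The peak at rank 2479 lay 226 bp upstream of tRNA:Leu-TAA-2-1 and 349 bp from CG13605. Coding promoters thus stood close to 6 of the 12 strongest peaks, within 500 bp of the summit.

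**Figure D2:**
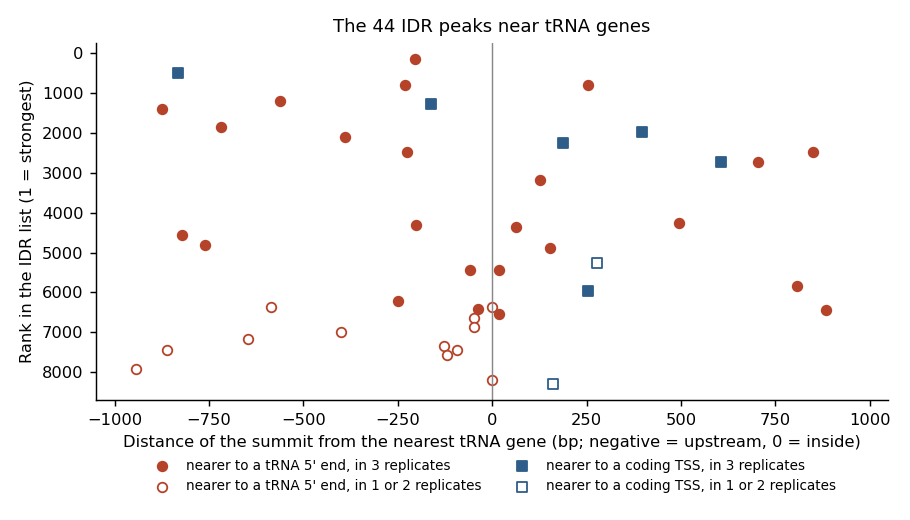
Rank in the reproducible list (vertical axis, strongest at the top) against distance from the nearest tRNA gene in bp for the 44 peaks. Filled symbols are peaks overlapped by a peak in all 3 reduced replicate lists, and 4 of them share these matches with a neighbour. Squares lie nearer to a coding TSS than to a tRNA 5′ end. No peak within 100 bp of a tRNA gene ranks above 4354, and the peaks that rank above it lie 128 bp or more away.

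By position, 25 of the 44 summits were upstream of their nearest tRNA gene, 17 were downstream and 2 were inside. Within 250 bp there were 22, of which 13 were upstream and 7 downstream, and 7 were within 50 bp. The median distance was 252 bp. The 10 peaks within 100 bp of a gene had a median rank of 6479 and a best rank of 4354; the 34 farther away had a median rank of 4279 and a best rank of 151. The same order was seen in each replicate, where the median ranks were 6947 against 4420, 5281 against 3777 and 6476 against 3824. These are ranks of replicate peaks that overlap the pooled ones, so they are not independent of the pooled ranks. Some close peaks also share their replicate match with a neighbour. All 10 of the close peaks, and 28 of the 44, were exactly 440 bp wide with the summit 220 bp after the start, as were 4921 of the 4927 peaks of that width in the whole list. For such peaks the deposited summit is thus the middle of an interval of fixed width.

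The strongest replicate peak that overlapped a peak was found in 131 of 132 possible cases. Its summit was a median of 20 bp from the reproducible summit, and within 50 bp in 102 cases (77.9%). For the 10 peaks within 100 bp of a gene the median shift was 53 bp, and for the other 34 it was 16 bp. The neighbouring peaks at tRNA:Ser-AGA-2-4 and at tRNA:Asp-GTC-1-5 share their replicate matches; without these 4 peaks the medians were 36 bp over 7 close peaks and 16 bp over the other 33. The narrower peaks had a median shift of 14.5 bp and the 440 bp peaks 23 bp.

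The 2 genes with a summit inside were weak. tRNA:Pro-AGG-1-7, a proline gene in a locus of 3 on 3L, had its summit 31 bp after the 5′ end at rank 6367, with replicate summits at 19, 33 and 59 bp and ranks of 6533, 10955 and 4590. tRNA:Thr-AGT-1-7, a single threonine gene within bnl, the gene of a fibroblast growth factor, had its summit 34 bp after the 5′ end at rank 8185. Its replicate summits lay 135 bp upstream in replicate 1 and 55 and 91 bp after the 5′ end in replicates 2 and 3. The gene is 74 bp long, so only the summit of replicate 2 lay inside it. The 2 summits that flank tRNA:Ser-AGA-2-4, 58 bp upstream at rank 5436 and 62 bp downstream at rank 4354, had 1 and the same strongest overlapping peak in each replicate. Those replicate peaks ranked 6886, 2924 and 4321, with summits 31 bp upstream, 118 bp after and 9 bp upstream of the 5′ end. Replicate 2 alone had a further overlapping peak, at rank 6540 with its summit 82 bp upstream, so a pair of peaks around the gene was seen in 1 of the 3 libraries.

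A coding TSS was nearer to the summit than any tRNA 5′ end for 8 of the 44 peaks, and a tRNA 5′ end was nearer for 36. The 8 had a median rank of 2493 and the 36 a median rank of 5440. A coding TSS was within 1 kb of 16 summits, while 19 summits were over 5 kb from any. Among the 80 tRNA genes with a coding TSS within 1 kb, 19 had a summit (23.8%; 27.9% ± 3.82 over replicates, SD, n = 3), and the bases with a coding TSS as near gave 19.3%. Among the 210 genes with none, 40 had a summit (19.0%). In the list cut to peaks also found in both replicates 1 and 2, 24 did so. The share was 13.3%, 24.8% and 23.8% in replicates 1, 2 and 3 (20.6% ± 6.34, SD, n = 3). Bases without a coding TSS within 1 kb gave 8.28% in the reproducible list and 7.89% ± 0.159 (SD, n = 3) over replicates, below the tRNA genes in each replicate.

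Clustered tRNA genes, with another within 1 kb, were near a summit in 41 of 185 cases (22.2%) and single ones in 18 of 105 (17.1%). The difference was 5.02 points in the reproducible list and 4.50, 14.7 and 5.12 points in replicates 1, 2 and 3. Its mean of 8.13 points ± 5.74 (SD, n = 3) was positive in 3 of 3 replicates (exact sign-flip permutation test, 2-sided, p = 0.25, the smallest possible with 3 replicates; 0.375 after adjustment over 3 differences). A clustered gene can share its neighbour's peak, and among the peaks above the median signal the difference turned to −1.0 points. The share did not rise steadily with the size of the locus: it was 12.8% for genes in loci of 2, 35.4% in loci of 3 and 25% in loci of 4.

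In the 3 largest loci by number of genes, either 1 peak lay within 1 kb of several genes or no peak lay that near. The Ile and Leu locus of 7 genes at chr2R:13430282-13432794 had 1 peak, at rank 8287, 160 bp downstream of tRNA:Ile-AAT-1-3; tRNA:Leu-CAA-2-1 and tRNA:Ile-AAT-1-4 were also within 1 kb, and tRNA:Ile-AAT-1-5, tRNA:Ile-AAT-1-6, tRNA:Ile-AAT-1-7 and tRNA:Leu-CAA-1-1 were not. The locus of 7 genes at chrX:14014814-14017284, with 5 genes for Arg from tRNA:Arg-TCG-2-1 to tRNA:Arg-TCG-3-4 and the Ser genes tRNA:Ser-CGA-1-1 and tRNA:Ser-CGA-1-2, had no reproducible peak. With 6 genes there were 2 loci. In the locus at chr3L:3095737-3097590 within Cht7, a chitinase gene, a peak at rank 4898 lay between tRNA:Cys-GCA-1-2 and tRNA:Cys-GCA-1-3, 152 and 155 bp away, and was also near tRNA:Cys-GCA-1-1, tRNA:Lys-CTT-1-12 and tRNA:Lys-CTT-1-13; only tRNA:Cys-GCA-1-4, 1305 bp away, fell outside. In the Asn and Arg locus at chr3R:8139533-8141042 no gene from tRNA:Asn-GTT-1-10 to tRNA:Arg-ACG-1-10 had a summit within 1 kb, the nearest being 1285 bp away at rank 1255.

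By amino acid, the largest shares near a reproducible peak were those of Cys, Glu, Pro and His. They stood at 3 of 7 genes, 8 of 19, 7 of 17 and 2 of 5, and the background for all tRNA genes is 20.3%. The nearest summits of the 8 Glu genes came from 4 peaks, of which 2 near loci of several Glu genes on 2R were nearest to 6 genes, and 7 of the 8 were near a summit in all 3 replicates. Those of the 7 Pro genes came from 5 peaks, and 5 of them were of the identical Pro-AGG sequence. The 3 Cys genes and the 2 His genes each shared 1 peak. Groups of so few peaks cannot be ranked.

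Val had 5 of 15 genes near a summit, Ile 3 of 11, Asp 3 of 14, Lys 4 of 19, Tyr 2 of 10, Ala 3 of 17 and Thr 3 of 17. Met and iMet, the elongator and initiator methionine genes, had 1 of 6 each, Arg had 4 of 26, Ser 3 of 20, Leu 3 of 22, Phe 1 of 8, Gly 2 of 20 and Gln 1 of 12. No gene for Asn (10), Trp (8) or selenocysteine (1) was near a reproducible peak, or near a peak of any reduced replicate list. By arm the counts were 10 of 41 on 2L, 23 of 98 on 2R, 12 of 48 on 3L, 10 of 79 on 3R and 4 of 24 on X. Genes with a unique sequence were near a peak in 11 of 52 cases (21.2%) and those with identical copies in 48 of 238 (20.2%).

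**Figure D3:**
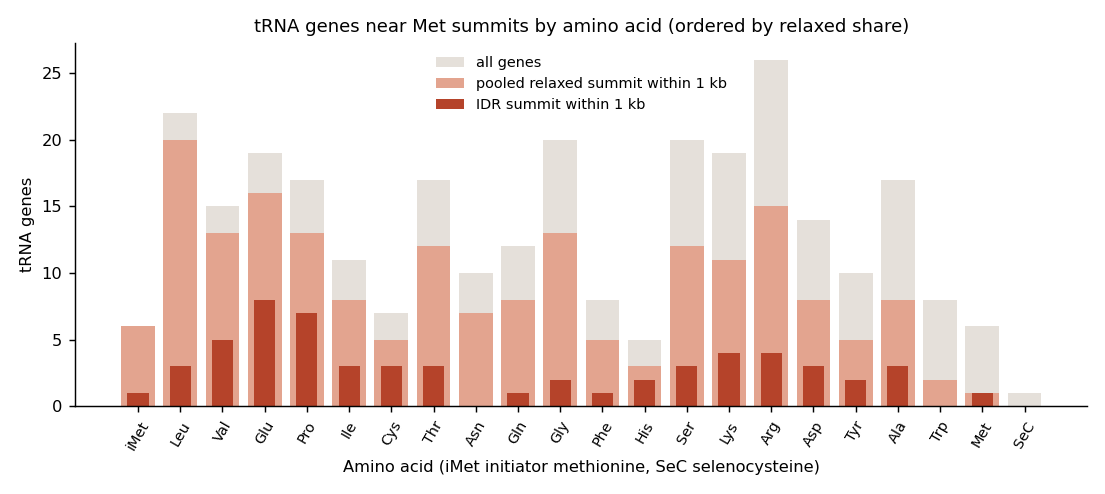
Number of tRNA genes by amino acid: all genes (grey), those with a summit of the pooled relaxed list within 1 kb (light red) and those with a reproducible summit within 1 kb (dark red). Bars are ordered by the relaxed share, from 6 of 6 for iMet to 0 of 1 for SeC, and Asn, Trp and SeC have no dark bar.

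The relaxed lists gave another picture. They hold 30000 peaks each, for the pooled replicates and for every replicate, and per the deposited listings they contain background as well as peaks. The reproducible list is exactly the strongest 28.4% of the pooled 30000. In the pooled relaxed list 191 of the 290 tRNA genes (65.9%) had a summit within 1 kb, beside 36.1% of coding 5′ ends, 37.7% of all genes and 29.4% of bases. In replicates 1, 2 and 3 the tRNA share was 57.9%, 66.6% and 70.7% (65.1% ± 6.51, SD, n = 3), and that of coding 5′ ends 40.9%, 38.4% and 41.1% (40.1% ± 1.48, SD, n = 3). Every replicate thus placed tRNA genes above coding 5′ ends. The difference, chosen after its values were seen, was 17.1, 28.1 and 29.6 points, with a mean of 24.9 ± 6.84 (SD, n = 3; higher in 3 of 3 replicates; exact sign-flip permutation test, 2-sided, p = 0.25, the smallest possible; 0.375 after adjustment over 3 differences).

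The relaxed peaks were near tRNA genes away from coding promoters too. Of the 210 tRNA genes without a coding TSS within 1 kb, 141 (67.1%) had a pooled relaxed summit nearby, and 50 of the 80 with one (62.5%) did. Bases without a coding TSS within 1 kb gave 27.3%. A summit was near in the relaxed lists of all 3 replicates for 131 tRNA genes, of 2 for 71, of 1 for 31 and of none for 57. Within 250 bp there were 116 tRNA genes (40%), against 22.0% of coding 5′ ends; in replicate 1 alone these shares were 24.8% and 25.1%, in replicate 2 42.4% and 23.2%, and in replicate 3 43.8% and 26.3%. At this distance replicate 1 thus showed no excess over coding 5′ ends. Summits fell inside tRNA genes 25 times in the pooled list, a density of 1135 per Mb beside 224 per Mb over the arms. The DNA around the genes was dense too: the 250 bp upstream of their 5′ ends held 924 per Mb, a summit being counted once for each gene. In replicates 1, 2 and 3 the density inside tRNA genes was 636, 1498 and 726 per Mb, beside 566, 966 and 993 in those 250 bp. In the pooled list the excess around tRNA 5′ ends reached past 1 kb. The bins 1250 to 1000 bp upstream and 1750 to 2000 bp downstream held 524 and 497 per Mb, and that 1500 to 1750 bp downstream 234. Around coding genes the same bins held 217, 170 and 179 per Mb.

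Other short gene classes stayed lower in the pooled relaxed list: small nucleolar RNA genes at 35.7%, small nuclear RNA genes at 46.9%, microRNA genes at 33.8% and genes of biotype rRNA at 1.01%. In every replicate each of them was below the tRNA genes. The other RNA polymerase III genes were not counted as a class in the relaxed lists. In the reproducible list 4 of the 9 besides 5S rRNA genes had a summit (44.4%). tRNA genes with identical copies were near a pooled relaxed summit in 160 of 238 cases (67.2%) and those with a unique sequence in 31 of 52 (59.6%). The part that copy number and the low G+C content of the flanks have in the relaxed shares was not tested.

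**Figure D4:**
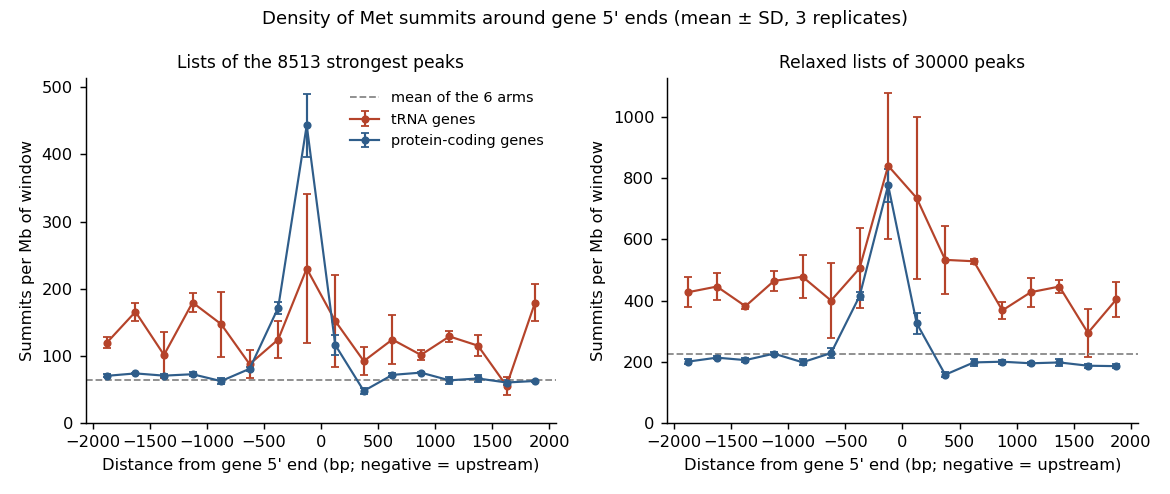
Density of Met summits in summits per Mb of window, by 250 bp bin of distance from the 5′ end, around tRNA genes and protein-coding genes; points are means and bars SDs over 3 replicates, and dashed lines the mean of the 6 arms. With the strongest peaks coding genes peak at 444 per Mb and tRNA genes at 230 per Mb just upstream; with the relaxed lists the mean of tRNA genes reaches 841 per Mb and stays above the dashed line in all bins.

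In the bin from 250 bp upstream to the 5′ end, the density of summits from the reduced lists was 110, 248 and 331 per Mb around tRNA genes in replicates 1, 2 and 3 (230 ± 111, SD, n = 3), and 444 ± 47.3 around coding genes. In the first 250 bp downstream of the 5′ end, a bin that contains the tRNA gene in most cases, it was 82.8, 221 and 152 per Mb around tRNA genes (152 ± 69.0, SD, n = 3) and 111, 104 and 133 around coding genes (116 ± 15.5), so replicate 1 had the opposite order to the means. Replicate 1 held more in its bin 1750 to 2000 bp downstream of tRNA 5′ ends, 207 per Mb, than just upstream of them. Replicates 2 and 3 held 152 and 179 per Mb there, less than just upstream. A summit near several genes is counted once for each. In the relaxed lists the density in these bins was 841 ± 239 and 736 ± 264 per Mb around tRNA genes, and 778 ± 53.6 and 326 ± 33.5 around coding genes. Replicate 1 again stood apart. Its upstream bin held 566 per Mb around tRNA genes, below 803 around coding genes, against 966 and 993 around tRNA genes in replicates 2 and 3. Its downstream bin held 441 per Mb around tRNA genes, no more than its bin 2000 to 1750 bp upstream and less than the 524 in its bin 500 to 750 bp downstream, against 952 and 814 in replicates 2 and 3. A rise just downstream of the tRNA 5′ end was therefore seen in 2 of the 3 libraries.

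Grouping the relaxed peaks of each replicate by rank showed where the tRNA peaks lay. The share of summits within 1 kb of a tRNA gene, divided by the share of bases as near to one, was 1.51 ± 0.196 (SD, n = 3) for ranks 1 to 5000 and 2.58 ± 0.741 for ranks 5001 to 10000. It was 2.56 ± 0.308, 2.38 ± 0.236, 2.40 ± 0.647 and 1.73 ± 0.433 in the following bins of 5000. For coding 5′ ends the same ratio fell along the ranks, from 2.04 ± 0.103 in the first bin to 1.68 ± 0.0520, 1.42 ± 0.136, 1.17 ± 0.0811, 0.999 ± 0.0537 and 0.933 ± 0.0239. The strongest bin was the lowest of the first 5 for tRNA genes and the highest for coding 5′ ends. In each bin past the first, every replicate had a higher ratio for tRNA genes than for coding 5′ ends. The median rank of pooled relaxed peaks near tRNA genes was 15696 of 30000.

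**Figure D5:**
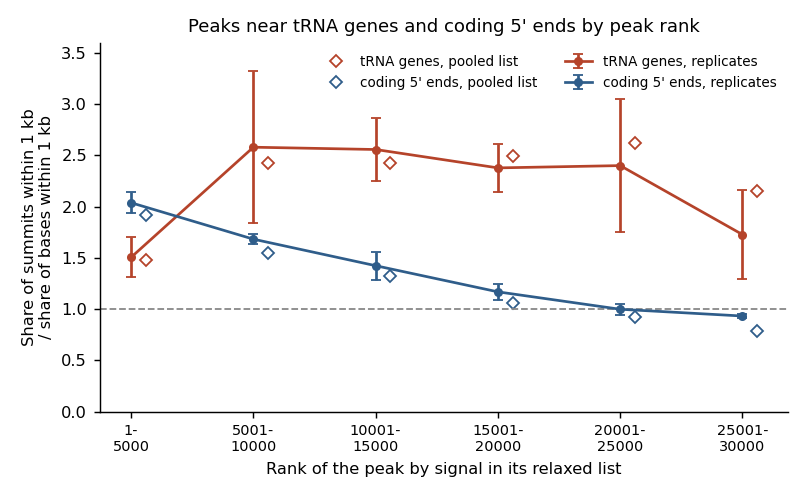
Share of summits within 1 kb of tRNA genes or of coding 5′ ends, divided by the share of bases as near, for bins of 5000 ranks in the relaxed lists; lines are means ± SD over 3 replicates and open diamonds the pooled list. The tRNA line starts at 1.51, below the coding line at 2.04, and is above it in all later bins.

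By amino acid, the pooled relaxed list reached all 6 iMet genes, 20 of 22 Leu, 13 of 15 Val and 16 of 19 Glu genes, where the share over all tRNA genes is 65.9% in the pooled list and 57.9%, 66.6% and 70.7% in replicates 1, 2 and 3. In replicates 1, 2 and 3 the counts were 4, 6 and 6 for iMet, 13, 17 and 18 for Leu, 14, 11 and 14 for Val and 15, 16 and 18 for Glu. The Leu count was thus lower in every replicate than in the pooled list, and 8 Leu genes were near a summit in all 3. The pooled list reached 7 of 10 Asn genes, which had no reproducible peak, and the replicates 4, 7 and 8. Trp was low throughout, with 2 of 8 genes in the pooled list and 2, 2 and 1 in the replicates. Elongator Met, with 1 of 6, was low in the pooled list alone, since the replicates reached 4, 3 and 4 of its genes. The selenocysteine gene was near a summit in replicate 1 only. The Arg and Ser locus on X had 5 of its 7 genes near a pooled relaxed summit, and the Asn and Arg locus of 6 on 3R had 0. The 2 loci of 6 genes together had 5 of 12 genes near one in the pooled list. In the relaxed lists of replicates 1, 2 and 3 they had 5, 9 and 11. Replicates 2 and 3 thus reached genes of the locus on 3R that the pooled list did not.

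Motifs at the 44 summits were counted within 50 bp, on either strand. The E-box CACGTG was at 0 of 44, beside 0.787% of all reproducible peaks, and CACGCG at 1 (2.27%, beside 1.42%). The shorter GCGTG, which is contained in CACGCG read on the other strand, was at 5 (11.4%, beside 7.02%). TATCGATA, GGTCACACT and GAGAGAG were at 0 of 44, beside 0.728%, 0.364% and 1.61%. The B box core GTTCGANNC was at 3 summits (6.82%, beside 0.787%) and GTTCNANNC at 5 (11.4%, beside 2.92%). Of those summits, 2 of the 3 and 4 of the 5 lay within 18 bp of a tRNA gene. Most tRNA genes hold GTTCNANNC and the peaks were chosen for lying near them, so the rule itself raises these B box shares and they are no finding. All of these are counts of 0 to 5 peaks.

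Genes that make and use tRNA were described by summits within 1 kb of any of their TSSs, for which the background is 22.2% of protein-coding genes. Of 22 genes of RNA polymerase III transcription 7 (31.8%) had a summit, with 40.9%, 22.7% and 31.8% in replicates 1, 2 and 3. The background in those lists was 25.3%, 23.0% and 24.7%, so replicate 2 lay at its background. The strongest were at Bdp1 (rank 281, 121 bp from a TSS) and Brf (rank 372, 141 bp), both subunits of TFIIIB. Polr1D (rank 796, 917 bp), a subunit shared by RNA polymerases I and III, and Polr3E (rank 1274, 282 bp), a subunit of RNA polymerase III, came next. These 4 genes had a summit nearby in all 3 replicates. Other members of the list, among them Polr3A, Polr3B, Polr3C, Polr3D, Tbp and Trf, had none. That held for the reproducible list and for every reduced replicate list.

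Of 20 cytoplasmic aminoacyl-tRNA synthetases, the enzymes that charge tRNAs, 4 (20%) had a summit. The replicate shares were 50%, 30% and 40%, beside the same replicate backgrounds of 25.3%, 23.0% and 24.7%. The 4 genes were AspRS at rank 1320, AlaRS at rank 4145, ArgRS at rank 5255 and GlyRS at rank 6956, each with a summit nearby in all 3 replicates. AsnRS had one in all 3 replicates too, but none in the reproducible list. The same list also missed GluProRS, near a summit in replicates 1 and 2, and IleRS and ThrRS, near one in replicates 1 and 3. Replicate 1 was the highest of the 3 for both lists of protein-coding genes, and the lowest for the tRNA genes themselves.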

How the data were processed

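ChIP-seq peak lists of 3 replicates of Met-GFP white prepupae were used. Per the labels, the builds are dm3 and dm6; only the dm6 lists were analysed. Per the deposited listings, relaxed lists of 30000 peaks, called per replicate and on the pooled replicates against 1 control file, served as input for IDR. Which aligner and peak caller were used is not stated in the sources used here. The deposited lists give the authors' signal per peak, which depends on library depth and was used only to rank peaks within a list. Read depth is unknown, so no interval is given.

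Genes came from Ensembl release 115 and sequence from RefSeq Release 6, both in dm6 coordinates, and positions are 1-based. Distances ran from summit to gene (0 inside it), or to the 5′ end or TSS for coding genes. Each replicate list was reduced to its 8513 strongest peaks, of which 8513, 8497 and 8506 in replicates 1, 2 and 3 lie on the 6 arms. Differences were tested by exact sign flips over replicates. The counting was tested on simulated peaks. The members, lists and tests were chosen with earlier results of these data known.

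Named were the genes nearest the 12 strongest peaks near tRNA genes, those holding a summit, the 3 largest loci (with 2 tied for the third place, 4 are given), those at the 1 kb limit, each amino acid, and the 4 strongest of each pathway list. Alternatives were other windows, stronger peaks, single replicates, each replicate left out, peak overlap with the gene, other locus gaps, other rules for coding TSSs and the pooled relaxed list, the last added after the data were seen. Python 3.11.15, numpy 2.4.6, pandas 2.3.3 and matplotlib 3.10.9 were used.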

Additional observations from a re-analysis of the deposited data

How the results depend on the processing

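Of 90 values recomputed under alternatives, 51 kept their result: differences kept their sign, counts stayed within 1.5 times and other shares within 1 SD over replicates. The 59 genes, 36 loci and 40 genes away from coding TSSs became 26, 21 and 15 with a window of 250 bp, 115, 65 and 88 with 2000 bp, 23, 17 and 14 among the peaks above the median signal, 16, 14 and 11 where the peak must overlap the gene, and 191, 112 and 141 in the pooled relaxed list, which was added after the data were seen. With 500 bp the genes were 38 and those away from coding TSSs 25. With each replicate left out in turn, using peaks found in both others, the genes ranged from 39 to 46, the loci from 24 to 29 and the genes away from coding TSSs from 24 to 29; the lowest were without replicate 3.

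The tRNA share minus the coding share, 0.123 points, turned to −3.04 with 250 bp, −2.90 with 500 bp, −4.71 in the stronger peaks, −7.08 in replicate 1 alone and −1.87 with any coding TSS. It ranged from −3.15 to −0.983 with a replicate left out. It was 13.3 points with 2000 bp, 5.59 and 2.42 in replicates 2 and 3 alone, and 29.8 in the pooled relaxed list. Its sign is thus not settled at the peak number of the reproducible list. Clustered minus single turned to −1.0 points in the stronger peaks, and with a replicate left out it ranged from 1.93 to 5.46. With loci chained over gaps of up to 500 bp it was 10.1 points, and over gaps of up to 5000 bp only 0.824. The share of summits upstream, 56.8%, became 63.9% over summits nearest to a tRNA 5′ end and 47.0% in the pooled relaxed list. The cause of these changes was not tested. With 1 group, no replicate numbers pair samples across groups; the sign-flip tests compare classes of genes within each library.

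With 3 libraries the smallest possible p is 0.25. Depth is unknown, and equal list lengths do not make libraries equally deep. The 3 libraries share 1 control file, and their peaks are not independent of its reads.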
